A study of Drosophila melanogaster with 9 samples.

Results

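Transcript levels of the phototransduction signalling complex were followed around the zeitgeber day in heads of Drosophila melanogaster. The group was fixed by name and held 10 genes, namely inaD, inaC, norpA, trp, trpl, ninaC, Galphaq, Gbeta76C, rdgA and Calx. Probe sets naming a single gene were used for 8 of the 10, and norpA, the phospholipase C of the eye, and ninaC, a myosin III, were not analysed here. The 8 genes were read by 13 probe sets (short oligonucleotide sets that each report 1 transcript level), out of 12105 probe sets and 9659 genes tested. All 13 passed the filter on low values, which asked for a log2 level of 5 or more on 2 or more arrays.

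The 9 Affymetrix arrays were hybridised with RNA from fly heads of a strain labelled 5073, without a second strain beside it. Zeitgeber time (ZT) counts hours of the light-dark day, and heads were taken every 4 h. ZT15 had 2 arrays, ZT3 had 3, and the times ZT7, ZT11, ZT19 and ZT23 had 1. The labels do not give the nature of the strain, the sex or age of the flies, the light schedule or the number of heads in a sample. Nor do they say that replicates came from separate collections, so p-values measure the spread between these arrays, which may be technical.

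In fly photoreceptors, light-activated rhodopsin switches on the G protein made of Galphaq and Gbeta76C, which activates the phospholipase C NorpA. Lipid products of that enzyme lead to the opening of the cation channels TRP and TRPL, and calcium flows in. The scaffold INAD, a protein built of PDZ domains, holds TRP, NorpA and the protein kinase C INAC together in the rhabdomere, the stack of microvilli that captures light. RDGA, a diacylglycerol kinase, removes a lipid messenger, and CALX, a sodium/calcium exchanger, pumps calcium out again. Several of these genes, Galphaq and Calx among them, are also used in other neurons.

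The heads carried transcripts of photoreceptors on every array: chp, which encodes the surface protein chaoptin, read between 13.10 and 13.75, and the arrestin genes Arr1 and Arr2 read between 14.93 and 15.29 and between 15.18 and 15.62. Medians over the tested probe sets lay between 8.34 and 8.50 on the 9 arrays, and 10534 to 11577 probe sets reached a level of 5. ZT3 replicate 1 and ZT15 replicate 2 stood apart and are called the 2-array set below. Markers of testis and accessory gland (20 genes) had medians of 3.57 and 3.79 on these arrays and of 9.82 to 11.73 on the other 7. The 20 include svp, to which the listed name don was matched through a synonym, and which may not mark these tissues. Both arrays of the set read below all 7 others for 17.3% of all tested probe sets and for 0 of the 13 probe sets of the complex. The ZT19 array had the widest gap between 3′ and 5′ probes of 4 of 5 control transcript readings, for example 2.30 for eIF-4a, against 1.32 to 1.55 on the other 8 arrays.

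The scaffold gene inaD and the kinase gene inaC were highest at ZT3 and lower through the following hours. The level of inaD (probe set 1638319_at) was 12.65, 13.02 and 13.07 at ZT3, 12.50 at ZT7, 12.30 at ZT11, 12.22 and 12.24 at ZT15, 12.31 at ZT19 and 12.77 at ZT23 (log2). The 4 arrays from ZT11 to ZT19 lay within 0.09 of each other, and ZT23 was above 1 of the 3 ZT3 arrays. The level of inaC (1637807_at) was 12.93, 12.98 and 12.80 at ZT3, 12.58 at ZT7, 12.38 at ZT11, 12.15 and 12.43 at ZT15, 12.14 at ZT19 and 12.40 at ZT23. All 3 ZT3 arrays read above the 6 others for inaC. The highest array exceeded the lowest by 1.80-fold for inaD and by 1.78-fold for inaC.

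Both channel genes were lowest at ZT19. The main light-activated channel gene, trp (1622920_at), read 14.60, 14.82 and 14.70 at ZT3, 14.63 at ZT7, 14.79 at ZT11, 14.66 and 14.62 at ZT15, 14.36 at ZT19 and 14.52 at ZT23. Its range of 1.37-fold was the smallest of the 8 genes. The gene of the second channel, trpl (1633649_s_at), whose protein is known to leave the rhabdomere in light, read 13.66, 13.93 and 13.83 at ZT3, 13.63 at ZT7, 13.86 at ZT11, 13.50 and 13.58 at ZT15, 13.13 at ZT19 and 13.30 at ZT23. For trpl the 5 arrays from ZT3 to ZT11 all read above the 4 from ZT15 to ZT23, over a range of 1.74-fold.

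By the probe set of highest mean, both G protein genes were highest at ZT3. Galphaq (1639773_s_at), the alpha subunit, read 14.00, 13.97 and 13.94 at ZT3, 13.73 at ZT7, 13.56 at ZT11, 13.49 and 13.87 at ZT15, 13.18 at ZT19 and 13.44 at ZT23. Gbeta76C (1624519_at), the beta subunit of the eye, read 14.68, 14.91 and 14.80 at ZT3, 14.51 at ZT7, 14.46 at ZT11, 14.40 and 14.60 at ZT15, 14.34 at ZT19 and 14.65 at ZT23. By these probe sets all 3 ZT3 arrays lay above the 6 others for both genes, but for Gbeta76C the lowest ZT3 array and ZT23 differed by 0.04. The ranges were 1.77-fold for Galphaq and 1.48-fold for Gbeta76C. The further Galphaq probe sets, 1630524_at and 1624798_s_at, were highest at ZT15 replicate 2.

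The lipid kinase gene rdgA had the widest range of the 8 genes. Its level (1641349_at) was 9.99, 10.99 and 11.20 at ZT3, 11.31 at ZT7, 11.42 at ZT11, 11.35 and 10.23 at ZT15, 10.17 at ZT19 and 10.83 at ZT23. The low arrays were both arrays of the 2-array set and ZT19, and the replicates of ZT15 lay near opposite ends of the range. The median of the 8 neuronal markers was 11.30 (ZT3 replicate 1), 11.16 (ZT15 replicate 2) and 11.12 (ZT19) on the same 3 arrays. It was 11.38 to 11.80 on the other 6. Single markers differed: elav read 11.43, 11.33 and 11.22 on the 3 arrays, against 11.76 to 12.02 on the other 6. Rab3, in contrast, read highest on the 2-array set, at 12.36 and 12.32, and lowest at ZT19 (11.89). The part of neuronal transcripts in the rdgA values was not tested. The exchanger gene Calx (1623234_s_at) read 10.68, 11.22 and 11.04 at ZT3, 10.78 at ZT7, 10.89 at ZT11, 10.64 and 10.66 at ZT15, 10.80 at ZT19 and 10.72 at ZT23. Calx stayed within a range of 1.5-fold, with ZT3 replicate 1 close to the ZT15 arrays, whereas rdgA spanned 2.70-fold.

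**Figure D1:**
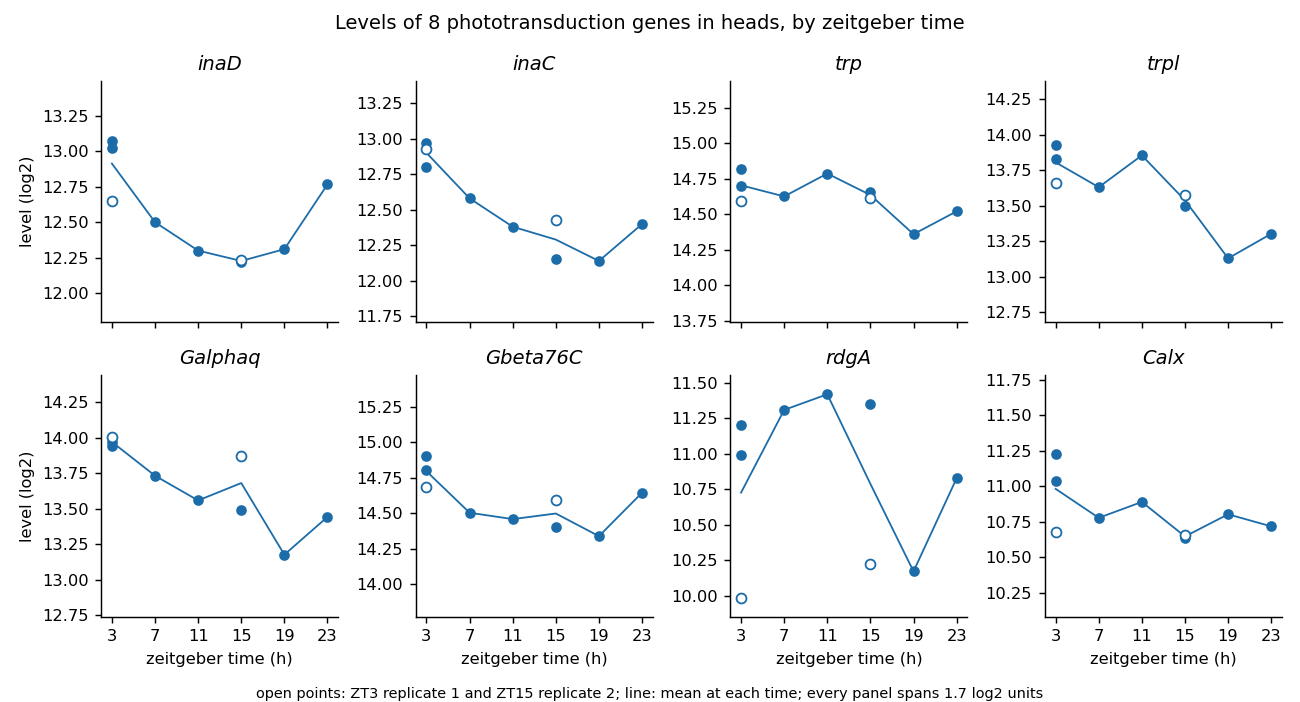
Level of each of the 8 genes (vertical axes, log2) by zeitgeber time (horizontal axes, h), 1 point per array, with a line through the mean at each time. Open points are ZT3 replicate 1 and ZT15 replicate 2. Every panel spans the same number of log2 units, so the flat course of trp and the wide scatter of rdgA can be set side by side.

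The highest array fell at ZT3 for 7 of the 8 genes, all but rdgA; the same held for 44.3% of all tested probe sets, with 3 of the 9 arrays at ZT3. All 3 ZT3 arrays lay above the 6 others for inaC, Galphaq and Gbeta76C, 3 of 8 genes, against 5.01% of all tested probe sets. Without the 2-array set, inaD and Calx joined them, which made 5 of 8 against 34.3%. The lowest array was ZT19 for 5 of the 8 genes (inaC, trp, trpl, Galphaq and Gbeta76C). It was so for 9 of the 13 probe sets and for 26.9% of all tested probe sets. The part of the wide 3′ to 5′ gap of the ZT19 array in these low values was not tested.

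Replicates existed at ZT15 and ZT3, and these times were compared. Lower means at ZT15 were seen for 7 of the 8 genes, and rdgA had nearly equal means. The median difference over the 8 genes was -0.29 (ZT15 minus ZT3, log2), against -0.04 over all tested probe sets, of which 57.9% were lower at ZT15. None of the 8 genes passed limma's moderated test after Benjamini-Hochberg adjustment over all tested probe sets, of which 0.0% passed. The photoreceptor genes chp, Arr1 and Arr2 had ZT15 minus ZT3 differences of -0.22, -0.07 and -0.15, and neuronal markers were lower at ZT15 for 8 of 8 genes with a median of -0.17 and 0 unadjusted p-values under 0.05; their part in the differences of the complex was not tested. In whole heads, fewer photoreceptor cells and less RNA per cell cannot be told apart.

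The level of inaD averaged 12.23 ± 0.01 at ZT15 (SD, n = 2) and 12.91 ± 0.23 at ZT3 (SD, n = 3), a difference of -0.69 with a standard error of 0.19 (limma, adjusted p = 0.9999), or 1.61-fold lower at ZT15. The level of inaC averaged 12.29 ± 0.20 at ZT15 and 12.90 ± 0.09 at ZT3, a difference of -0.61 with a standard error of 0.17 (limma, adjusted p = 0.9999), or 1.53-fold lower at ZT15. These were the 2 genes with an unadjusted p under 0.05, and 1.58% of all tested probe sets were lower at ZT15 by the same rule. With 2 arrays against 3, an exact permutation test of 1 gene has 10 arrangements and cannot go below a two-sided p of 0.2.

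The other genes had smaller differences, none with an unadjusted p under 0.05. Galphaq averaged 13.68 ± 0.27 at ZT15 and 13.97 ± 0.03 at ZT3, and Gbeta76C 14.50 ± 0.14 at ZT15 and 14.80 ± 0.11 at ZT3. Their differences were -0.29 and -0.30, with standard errors of 0.18 and 0.16. The Galphaq difference was -0.10 without ZT15 replicate 1 and -0.48 without ZT15 replicate 2. Calx averaged 10.65 ± 0.01 at ZT15 and 10.98 ± 0.28 at ZT3, and trpl 13.54 ± 0.06 at ZT15 and 13.81 ± 0.14 at ZT3. For trp the difference was -0.07 with a standard error of 0.15, and for rdgA it was 0.06 with a standard error of 0.54.

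Both ZT15 arrays lay below all 3 ZT3 arrays for 6 of the 8 genes (inaD, inaC, trpl, Galphaq, Gbeta76C and Calx). Counted by probe set, they did so for 6 of the 13, against 9.62% of all tested probe sets. The gap between the highest ZT15 and the lowest ZT3 array was 0.41 for inaD and 0.37 for inaC, but 0.02 for Calx and 0.07 to 0.09 for Galphaq, trpl and Gbeta76C. The same 6 genes were lower at ZT15 both within the 2-array set and within the remaining arrays, as were 34.4% of all tested probe sets. For inaD the ZT15 minus ZT3 difference was -0.41 in the set and -0.83 in the others, and for inaC it was -0.50 in the set and -0.74 in the others. For the other 4 of these genes the difference lay between -0.13 and -0.02 within the 2-array set and between -0.50 and -0.38 within the other arrays. Over the 8 genes the median difference was -0.08 in the set, where that of all tested probe sets was 0.01, and -0.46 in the others, where it was -0.15. Related lists were low in the other arrays too. Their medians were -0.73 for the photoreceptor transmitter, -0.46 for photoreceptor structure, -0.42 for phosphoinositide partners and -0.35 for opsins and rhodopsin handling. Neuronal markers had -0.19 there, whereas markers of gut and of testis and accessory gland had 3.12 and 1.80.

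With the 2-array set as a block, inaD and inaC again had unadjusted p-values under 0.05, 2 of 8 genes against 6.23% of all tested probe sets lower at ZT15 (adjusted p = 0.312 and 0.286, limma). Without the set, 1 array at ZT15 was left against 2 at ZT3, with its spread assumed to be that of the ZT3 arrays. For inaD this gave a difference of -0.83 (adjusted p = 0.0183, limma) and for inaC one of -0.74 (adjusted p = 0.0356), 2 of 8 genes against 5.04% of all tested probe sets called lower. Markers of testis and accessory gland differed the opposite way on these arrays, with a median of 11.70 at ZT15 (replicate 1) and 9.83 and 9.82 at ZT3 (replicates 2 and 3), and their part in the differences was not tested. Over all arrays the 20 markers were higher at ZT15 for 12 genes and lower for 8, none with an unadjusted p under 0.05. With the 2-array set as a block, their median difference was 1.18, and 13 of the 20 had an unadjusted p under 0.05 (limma, either direction). By that rule 1451 of the 12105 tested probe sets did. The log2 of the markers' summed level ran from 10.89 to 16.41 at ZT15 and from 10.82 to 14.48 at ZT3.

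**Figure D2:**
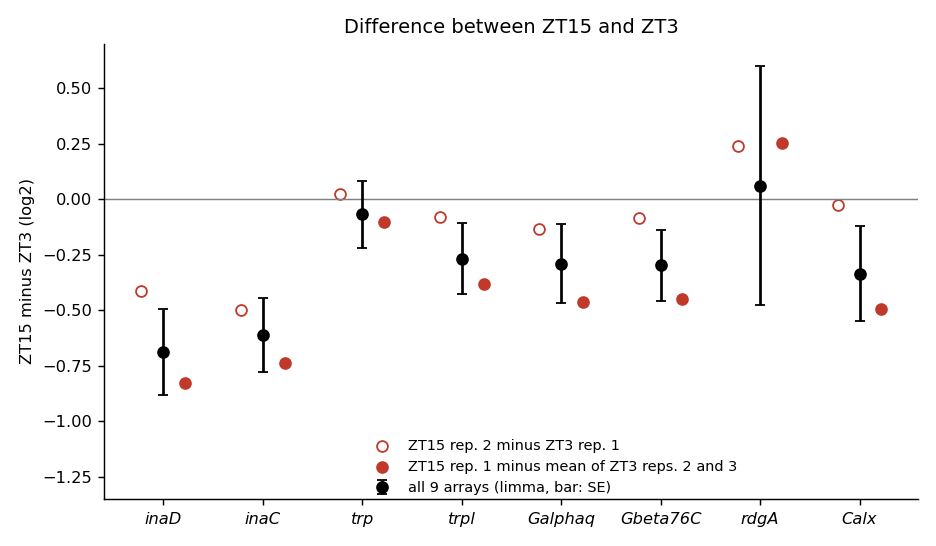
Difference in level between ZT15 and ZT3 (vertical axis, log2) for the 8 genes. Black points with bars are the limma estimate over all arrays and its standard error, open red points ZT15 replicate 2 minus ZT3 replicate 1, and filled red points ZT15 replicate 1 minus the mean of ZT3 replicates 2 and 3. inaD and inaC lie lowest in all 3 readings, at -0.41 to -0.83, and the bar of rdgA is the longest.

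A 24 h rhythm was tested as a cosine and a sine over the 9 arrays. The fitted amplitude (the size of the cosine on the log2 scale) was 0.36 ± 0.07 (SE) for inaD with a peak at ZT2.1 ± 1.1 h and 0.33 ± 0.08 for inaC with a peak at ZT4.4 ± 1.2 h. It was 0.33 ± 0.11 for trpl, with a peak at ZT7.5 ± 1.0 h. These 3 genes had unadjusted p-values under 0.05 by limma's moderated F, as did 4.33% of all tested probe sets. After adjustment none of the 8 genes passed (adjusted p = 0.825, 0.908 and 1.00 for the 3), and 0.033% of all tested probe sets did.

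The other 5 genes had amplitudes between 0.13 (Calx) and 0.50 (rdgA), with peaks between ZT2.9 (Gbeta76C) and ZT8.9 (rdgA). The standard error of rdgA's amplitude was 0.29, and that of Calx's peak time was 3.3 h. The median amplitude of the 8 genes was 0.30, against 0.16 over all tested probe sets. All 8 fitted peaks fell between ZT2 and ZT10, a window chosen after the values were seen, and so did 42.8% of all tested probe sets. Of the 13 probe sets 12 did so, all but 1624798_s_at of Galphaq (ZT16.6). The window was not particular to the complex. It held 8 of 8 genes of photoreceptor structure, 7 of 8 neuronal markers, 6 of 7 glia markers and 15 of 19 paralogs. Of the opsin and rhodopsin handling genes it held 7 of 13, and of the photoreceptor transmitter genes 4 of 7. In order of fitted peak the 8 complex genes ran inaD, Gbeta76C, Calx, inaC, Galphaq, trpl, trp and rdgA, and neighbours in this order differed by less than the sum of their standard errors. With the 2-array set as a block, Galphaq and rdgA joined the 3 genes, making 5 of 8 with an unadjusted p under 0.05 against 16.9% of all tested probe sets. Without the ZT19 array, the amplitude of trpl was 0.26, no longer with an unadjusted p under 0.05, while inaD and inaC had 0.35 and 0.30 and kept theirs under it. Without the 2-array set the amplitudes of inaD, inaC and trpl were 0.42, 0.37 and 0.35 (adjusted p = 0.105, 0.123 and 0.168, limma).

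The later times ZT15, ZT19 and ZT23 (4 arrays) were also set against the earlier times ZT3, ZT7 and ZT11 (5 arrays). All 8 genes had lower means at the later times, with a median difference of -0.33, against -0.03 over all tested probe sets, of which 56.9% were lower. Without ZT19, the array with the widest 3′ to 5′ gap in 4 of 5 control readings, the median was -0.25, and the difference was -0.11 for trp (-0.17 with it) and -0.18 for rdgA (-0.34 with it). None passed after adjustment, nor did any other probe set (0.0% of those tested). The level of trpl averaged 13.38 ± 0.20 at the later times (SD, n = 4) and 13.78 ± 0.13 at the earlier times (SD, n = 5). The difference was -0.40 with a standard error of 0.12 (adjusted p = 0.955, limma), and the exact permutation p of 0.0159 (two-sided) is the smallest that 4 arrays against 5 allow. Replicates of ZT3 and of ZT15 were counted as separate arrays in both tests, which weighs the earlier times towards ZT3. All 4 later arrays lay below all 5 earlier ones for trpl, the 1 gene of 8, against 1.42% of all tested probe sets. Without the 2-array set Galphaq joined it, 2 of 8 against 11.9%, and without ZT19 as well so did Calx, 3 of 8 against 16.6%. The level of inaC averaged 12.28 ± 0.16 at the later times and 12.73 ± 0.25 at the earlier times, a difference of -0.45 with a standard error of 0.15 (exact permutation p = 0.0476, adjusted p = 0.955 by limma). The genes trpl and inaC were the 2 of 8 with an unadjusted limma p under 0.05, and 3.89% of all tested probe sets were lower by that rule. Without the 2-array set the difference was -0.50 for trpl (adjusted p = 0.330, limma) and -0.45 for inaC (adjusted p = 0.339). With 1 mean per zeitgeber time it was -0.44 for trpl (unadjusted p = 0.0254, limma) and -0.34 for inaC (unadjusted p = 0.0898). In that setting the difference of inaD was -0.14, and the median over the 8 genes was -0.26.

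The 6 other genes had differences between -0.17 (trp) and -0.35 (Galphaq), with exact permutation p-values between 0.0794 and 0.429. For inaD, whose ZT15 and ZT3 arrays lay far apart, the difference was -0.33 with a standard error of 0.20, with a low level at ZT11 among the earlier and a high one at ZT23 among the later times. The photoreceptor genes chp, Arr1 and Arr2 had later minus earlier differences of -0.23, -0.14 and -0.16, and their part was not tested. Neuronal markers had lower means at the later times too, 8 of 8 genes with a median of -0.25, 1 of them (nSyb, a synaptic vesicle protein, at -0.58) with an unadjusted p under 0.05. The log2 of the markers' summed level ran from 14.20 to 14.33 at the later times and from 14.23 to 14.60 at the earlier times, and their part in the differences was not tested. Markers of testis and accessory gland had higher means at the later times for 20 of 20 genes (svp included), with a median of 0.41 and 0 unadjusted p-values under 0.05. With the 2-array set as a block, the median of these markers was 0.75 and 2 of the 20 had an unadjusted p under 0.05 (limma). The log2 of their summed level ran from 10.89 to 16.41 at the later times and from 10.82 to 16.28 at the earlier times, and their part was not tested either.

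**Figure D3:**
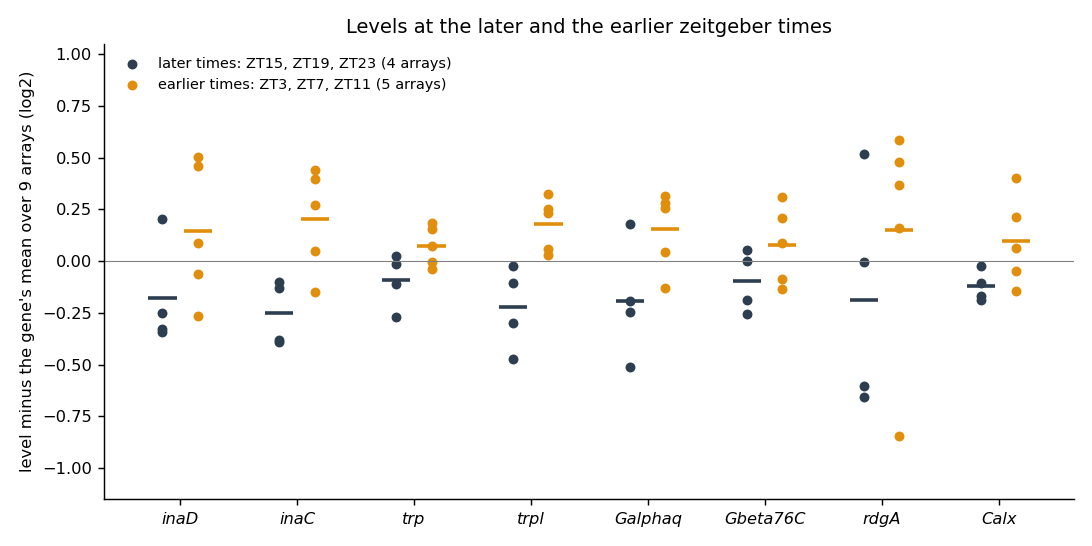
Levels at the later times (ZT15, ZT19 and ZT23, dark points, 4 arrays) and at the earlier times (ZT3, ZT7 and ZT11, orange points, 5 arrays) as differences from each gene's mean over the 9 arrays (vertical axis, log2). Horizontal strokes are group means. The dark points of trpl all lie below its orange points, and the groups overlap for the other 7 genes.

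When limma's array weights were used, 5 of 8 genes (inaD, inaC, trpl, Galphaq and Gbeta76C) passed the rhythm test after adjustment, with 9.72% of all tested probe sets, and 4 of 8 (inaC, trpl, Galphaq and Calx) were called lower at the later times, with 12.1%. These weights ran from 0.0064 (ZT11) to 13.7 (ZT3 replicate 3) in the rhythm fit.

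Differences between 2 genes on the same array were examined for all 28 pairs. The height of such a difference has no meaning as a ratio of transcripts, since probe sets differ in response. Its course over the arrays can also carry a difference in response, which was not tested. For 2 of the 28 pairs every later array lay on one side of every earlier array, against 2.43% of the pairs among all genes tested; both pairs were picked after their values were seen and carry no test. The trp minus trpl difference was 1.16 and 1.04 at ZT15, 1.23 at ZT19 and 1.22 at ZT23, against 0.94, 0.89 and 0.87 at ZT3, 1.00 at ZT7 and 0.93 at ZT11. The trpl reading was thus lower relative to the trp reading at the later times, by 0.24 on average. By itself trpl also separated the later from the earlier arrays, so this pair is no independent result. Its range was 1.74-fold, against 1.37-fold for trp. The inaC minus Gbeta76C difference was -2.25 and -2.17 at ZT15, -2.20 at ZT19 and -2.25 at ZT23, against -1.75, -1.93 and -2.0 at ZT3, -1.92 at ZT7 and -2.08 at ZT11, an average difference of -0.28 between later and earlier times.

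**Figure D4:**
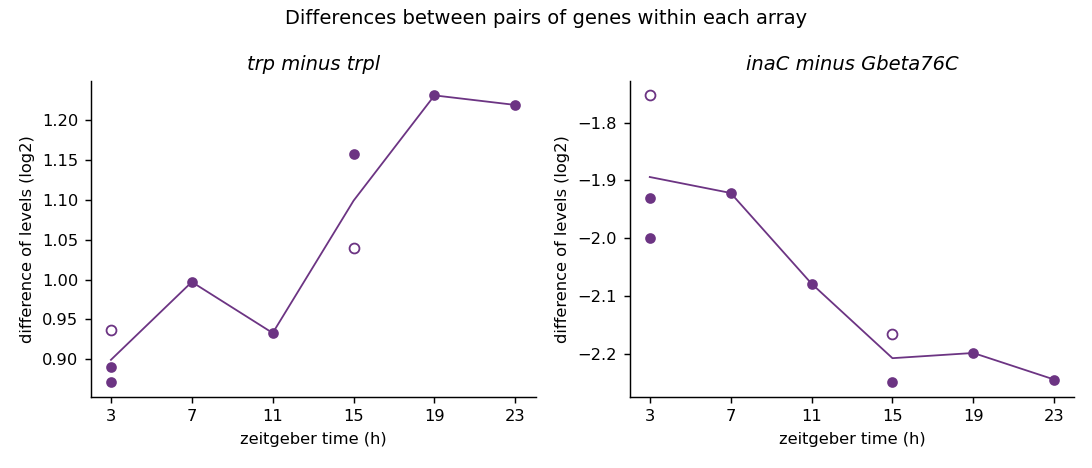
Difference in level between trp and trpl (left) and between inaC and Gbeta76C (right) on each array (vertical axes, log2) by zeitgeber time (horizontal axes, h). Lines join the means at each time and open points are ZT3 replicate 1 and ZT15 replicate 2. The vertical axes do not start at zero; trp minus trpl lies between 1.04 and 1.23 from ZT15 on and between 0.87 and 1.00 before.

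Galphaq and rdgA were read by several probe sets, which did not all follow the same course. For Galphaq, 1630524_at was highest at ZT15 replicate 2 (10.86) and lowest at ZT19 (9.98), and correlated with the main probe set at r = 0.82 over the 9 arrays. The third, 1624798_s_at, correlated with the main probe set at r = 0.20 and stayed between 8.72 and 9.24. Both had ZT15 minus ZT3 differences of the opposite sign to the main probe set, 0.08 and 0.12, with standard errors of 0.17 and 0.20. A lower Galphaq level at ZT15 was thus seen with 1 of its 3 probe sets.

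For rdgA, 1626192_at and 1628730_at followed the main probe set at r = 0.95 and 0.96, with the same low arrays. Probe set 1628730_at had the widest range of the 13 probe sets, 3.81-fold, from 8.50 at ZT19 to 10.43 at ZT7. The fourth, 1635851_at, was read at low levels of 6.02 to 6.84 and correlated at r = 0.52. The ZT15 minus ZT3 difference of the 3 probe sets that moved together was 0.24, 0.27 and 0.56 in the 2-array set and 0.25, 0.16 and 0.39 in the other arrays. With the set as a block, 1628730_at had a difference of 0.46 (adjusted p = 0.345, limma).

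**Figure D5:**
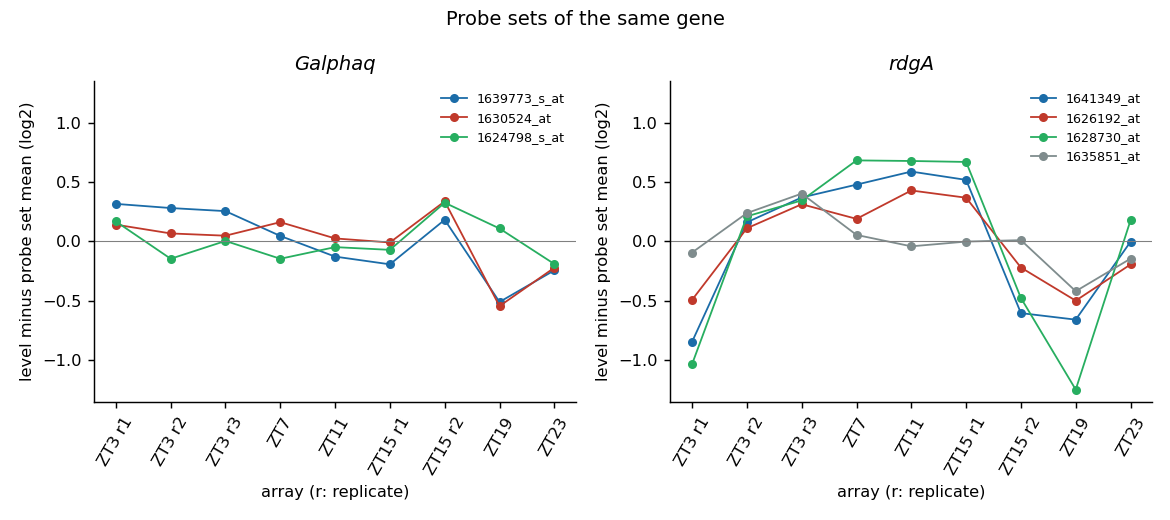
Level of each probe set of Galphaq (left, 3 probe sets) and rdgA (right, 4 probe sets) on each array, as the difference from the probe set's mean over the 9 arrays (vertical axes, log2); r stands for replicate. The lines only connect readings of one probe set. 3 of the rdgA probe sets dip together at ZT3 replicate 1, ZT15 replicate 2 and ZT19, and 1624798_s_at of Galphaq does not share the ZT19 dip of the other 2.

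The 8 genes shared their course to different degrees, described here by Pearson's r over the 9 arrays, which share their normalization and their composition. The most alike were trp and trpl at r = 0.94, with trpl at rank 5 of 9658 genes for likeness to trp. That value was 0.90 without ZT19 and 0.86 without the 2 arrays farthest from the median of trp. The pairs inaD and Gbeta76C, inaC and Gbeta76C, and inaC and Galphaq each had r = 0.88. For likeness to inaD, Gbeta76C was at rank 29 of 9658 genes, and for likeness to Gbeta76C, inaD was at rank 95. For likeness to inaC, Gbeta76C and Galphaq were at ranks 146 and 154. In turn inaC was at rank 98 for Gbeta76C and at rank 447 for Galphaq. For rdgA, r was between -0.08 and 0.00 with inaC, Galphaq and Gbeta76C, but 0.28, 0.57 and 0.17 without the 2-array set and -0.36, -0.51 and -0.29 without ZT19. Most of these values changed when arrays were left out; inaD and Calx, for example, had r = 0.71 over 9 arrays and -0.06 without the 2 arrays farthest from the median of inaD.

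Among 9651 genes outside the group, the closest course to trpl was that of betaTub56D, a beta-tubulin gene (r = 0.99), and the closest to Galphaq was that of gem (r = 0.99). The closest genes to the others were CG32052 to inaD (0.97), CG6834 to inaC (0.98), Helz to trp (0.97), verm to Gbeta76C (0.99), Ptpmeg2 to rdgA (0.97) and CG14762 to Calx (0.97). The median course of the 8 genes, 0.07, 0.32 and 0.24 above its mean at ZT3, 0.01 at ZT7, -0.03 at ZT11, -0.19 and -0.06 at ZT15, -0.33 at ZT19 and -0.11 at ZT23, was followed most closely by jub (0.99), Upf2 (0.97), CG7920 (0.96), kar (0.96) and Lpin (0.96).

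Of the other genes listed for the phototransduction pathway, none passed after adjustment in the 3 comparisons. Partners in phosphoinositide turnover and G protein signalling (10 of 12 listed genes measured) were lower at ZT15 for 10 of 10, with a median of -0.25 and 1 unadjusted p under 0.05. That gene was laza, a lipid phosphatase that acts against RDGA in photoreceptors, with a ZT15 minus ZT3 difference of -0.64 (adjusted p = 0.9999, limma). At the later times the 10 genes had a median difference of -0.17. The list of opsins and rhodopsin handling (13 of 20 genes measured) had a median of -0.15 at ZT15 minus ZT3 and 0 unadjusted p-values under 0.05. With the 2-array set as a block, 4 of the 13 had an unadjusted p under 0.05 (limma), as did 1451 of 12105 tested probe sets. In that fit it was 1 of 10 for the phosphoinositide and G protein partners. It was 2 of 8 for photoreceptor structure and 3 of 7 for the photoreceptor transmitter. Rh7 was the only opsin gene among the 13 genes of opsins and rhodopsin handling. The opsin genes ninaE, Rh2, Rh3, Rh4, Rh5 and Rh6 were not measured here, nor was ninaA, so these values do not describe them. Pdh, the retinol dehydrogenase of pigment cells, had a difference of -0.30 at the later times (adjusted p = 0.955, limma) and was the 1 gene of the 13 with an unadjusted p under 0.05 there. The retinoid-binding protein gene pinta had the largest amplitude of these, 0.66 with a fitted peak at ZT22.1 (adjusted p = 0.879, limma), away from the window of the 8 complex genes.

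Genes of photoreceptor structure (8 of 10 measured) had a median of -0.30 at ZT15 minus ZT3 and of -0.32 at the later times, when 3 had lower values with an unadjusted p under 0.05. Cpn, which encodes the calcium-binding protein calphotin, had a difference of -0.44 at the later times (adjusted p = 0.955, limma), and eys, whose protein fills the space between rhabdomeres, one of -0.69 (adjusted p = 0.955). Genes of the photoreceptor transmitter histamine (7 of 8 measured) had medians of -0.42 at ZT15 minus ZT3 and -0.36 at the later times. Of these, t (tan), an enzyme that frees histamine from its conjugate, had a ZT15 minus ZT3 difference of -0.73 (adjusted p = 0.9999, limma), and CarT, a transporter, one of -0.63 (adjusted p = 0.9999).

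Paralogs from the families of the 10 genes, other TRP channels, G protein subunits, phospholipases and kinases (19 of 27 listed genes tested), had a median of -0.13 at ZT15 minus ZT3 with 14 of 19 lower and 0 unadjusted p-values under 0.05. Of the TRP channels listed, Trpm, pain and pyx were tested, and trpgamma, TrpA1, nompC, iav, nan, Pkd2 and Trpml were not. At the later times the median of the 19 paralogs was -0.11. The phospholipase gene Plc21C, 1 of 19, was lower there with an unadjusted p under 0.05 (a difference of -0.46, adjusted p = 0.955, limma). Galphao, another alpha subunit gene, had a fitted amplitude of 0.30 peaking at ZT8.9 (adjusted p = 0.83, limma), and read 12.21 at both ZT7 and ZT11. Markers of glia (7 genes) had medians of -0.07 at ZT15 minus ZT3 and -0.13 at the later times, those of muscle (6 genes) -0.02 and -0.22, and those of fat body (6 genes) -0.02 and -0.08. Gut markers (11 genes) had medians of 1.19 and 0.71, on arrays where their median level ran from 4.12 to 10.86.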

How the data were processed

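Total RNA of fly heads was labelled with biotin and hybridised to Affymetrix arrays, per the labels' protocols. The deposited intensity values are on a linear scale and were made with GCRMA by the authors, per the submitters' processing notes; no source used here gives its settings. Their natural log was taken as the log2 level, since the added hybridization controls then rose with log2 concentration at a slope of 1.03 ± 0.06 (SD, 9 arrays), against 1.49 with log2; with log2, differences are 1.443 times larger. Gene names came from GEO's platform annotation, updated through RefSeq identifiers: 13647 probe sets named 1 gene, 402 several and 4720 none, and 183 controls were left out. The probe set of highest mean stood for a gene. Comparisons (ZT15 against ZT3, a 24 h cosine, later against earlier times) were fitted with limma 3.58.1 in R 4.3.3 over all tested probe sets, two-sided, Benjamini-Hochberg adjusted with a threshold of 0.05, and tested on simulated data; exact permutation tests used scipy 1.17.1. All probe sets of the group were named, and up to 2 genes of smallest p per list and comparison. The genes, lists and the 2-array set were chosen with earlier results of these data known; the array counts and gene pairs were added after the values were seen. Precision is limited by 9 arrays. Alternatives were other filters, normalizations, weights, blocks and arrays left out.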

Additional observations from a re-analysis of the deposited data

Results flagged for a closer look

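The ZT23 array stood apart from the other arrays of the later times for inaD. It read 12.77, against 12.22 and 12.24 at ZT15 and 12.31 at ZT19, and its gap to the nearest of them made up 0.834 of the range, above the critical value of Dixon's test for 4 arrays. No other probe set of the group was set apart this way at the later or the earlier times. Chance sets about 1 in 20 groups of replicates apart, and each of the 13 probe sets was examined at the later and at the earlier times. The 4 arrays came from ZT15, ZT19 and ZT23, so the test cannot tell a change over time from a stray reading. The cause was not tested.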

How the results depend on the processing

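Calls rested on array choice and weighting. Without the 2-array set, 2 genes were called for ZT15 against ZT3, the median was -0.46, 2 of 8 genes had later arrays below all earlier ones (11.9% of all probe sets; without ZT19 as well, 3 and 16.6%), and 5 had all ZT3 arrays on top (34.3%). Array weights gave 5 rhythm calls and 4 lower calls at the later times. Leaving out 1 array at a time called 0 of the 8 genes, with medians of -0.37 to -0.23 (ZT15 minus ZT3), amplitudes of 0.21 to 0.36 and -0.35 to -0.24 (later minus earlier). The replicate numbers of ZT15 and ZT3 did not pair the arrays (same-numbered arrays deviated with r = -0.87 and -0.81), and the replicate block called 0 genes with a median of -0.30. Signs turned for some probe sets of rdgA and Galphaq. With array weights the ZT15 minus ZT3 differences of rdgA were -0.23 (1641349_at), -0.077 (1626192_at) and -0.11 (1628730_at); leaving out 1 array at a time they ran from -0.50 to 0.62, from -0.20 to 0.39 and from -0.32 to 0.83. Those of Galphaq were -0.067 (1630524_at) and -0.0004 (1624798_s_at) without the 2-array set, and ran from -0.095 to 0.25 and from -0.080 to 0.32 leaving out 1 array at a time. The later minus earlier difference of 1624798_s_at was -0.072 with array weights and ran from -0.017 to 0.15 leaving out 1 array at a time. Over all probe sets, calls for ZT15 against ZT3 numbered 0, and 2190 without the 2-array set. Rhythm calls numbered 4, 0 with 1 mean per time, 30 with the set as a block, 68 without it, 1177 with array weights and 2 to 11 leaving out 1 array at a time where they changed. Later against earlier calls numbered 0, and 2116 with array weights. Causes were not tested. Other filters, normalizations and log2 scaling changed no call or sign in the 8 genes; 1635851_at did not reach the stricter filter and has no value there.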

Other observations

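The gene prom, which encodes a prominin of photoreceptor microvilli, read 3.33 at ZT19 and between 7.64 and 8.57 on the other 8 arrays. The ZT19 value came from 1 array and lay below the filter level of 5. That array had the widest 3′ to 5′ gap in 4 of 5 control readings, and the part of the gap in this value was not tested. The ZT15 minus ZT3 difference of prom was 0.56 with a standard error of 0.15 (adjusted p = 0.9999, limma), 8.42 and 8.57 at ZT15 against 7.92, 8.02 and 7.87 at ZT3, while most other genes of photoreceptor structure were lower at ZT15.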
